A study of Mus musculus with 12 samples.

Results

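The genes described here are 10 cytokine receptor genes, Il2ra, Il2rb, Il2rg, Il7r, Il4ra, Il21r, Il6st, Il12rb2, Il18r1 and Il18rap, chosen by name from the 25655 genes listed in each library. They encode the chains through which T cells sense interleukins. Il2ra, Il2rb and Il2rg make the IL-2 receptor, and Il2rg encodes the common γ chain, which also pairs with the products of Il7r, Il4ra and Il21r. Il6st encodes gp130, the shared signalling chain of the IL-6 family, and Il12rb2 encodes the signalling chain of the IL-12 receptor. The products of Il18r1 and Il18rap bind IL-18 and signal through MyD88, whereas the other 8 act through Janus kinases (JAKs) and STAT transcription factors. In CD8 T cells, IL-2 signals drive expansion and effector differentiation, IL-7 signals maintain naive and memory cells, and IL-12 and IL-18 together induce interferon-γ.

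Messenger RNA was measured in cultured splenic CD8 T cells of female mice of the strain C57BL/6, either Ezh2-deficient (KO) or wild type (WT). The 12 libraries form 4 groups of 3, KO day 5, WT day 5, KO day 3 and WT day 3. Ezh2 encodes an enzyme of Polycomb repressive complex 2 that deposits H3K27me3, a chromatin mark linked to silent genes. All groups started from naive cells (CD44 low, CD62L high) given immobilised antibody to TCR-β at 3 µg/ml and antibody to CD28 at 1 µg/ml, with IL-2 at 10 ng/ml, for 2 days. They then stayed in IL-2 on a new plate for 1 or 5 days. Those times do not add up to the day 5 of the titles, and the days used here follow the titles. The Ezh2 allele, the deleted part and any Cre driver were not given in the sources used here. Nothing in the labels ties a replicate to its own mouse or culture, so p-values rest on the library-to-library spread alone, and that spread may be technical. IL-2 was present in every group, so no group shows these genes without it.

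Libraries held 1545391 to 2011247 reads, and values are reads per 1000000 reads of the library (CPM), where 1 read was worth 0.497 to 0.647 CPM. Ezh2 stood at 159 to 283 CPM in KO day 5 libraries and 306 to 319 CPM in WT day 5 libraries (log2 difference of −0.70 ± 0.15, SE, limma adjusted p = 5.83e-04). At day 3 it stood at 311 to 377 CPM in KO and 357 to 409 CPM in WT (−0.16 ± 0.15, limma adjusted p = 0.499). These reads come from the 3′ end of the transcript and cannot check a deletion that lies elsewhere. KO day 5 replicate 2 stood apart, its read counts giving chi-square values, divided by their degrees of freedom, of 5.89 and 5.69 when set against replicates 1 and 3, where the other pairs within groups gave 1.33 to 2.56. It also had the highest Ezh2 of its group. All 9 CD8 T cell markers had reads in every group, and their summed level was 3690 to 4754 CPM in KO day 5, 2973 to 3012 in WT day 5, 2882 to 3329 in KO day 3 and 3137 to 3209 in WT day 3. Of 15 myeloid and dendritic cell markers, 11, 8, 11 and 9 had reads in those groups, and their sum was 632 to 734, 258 to 276, 252 to 268 and 48.0 to 53.3 CPM. Ccr2, which activated T cells also express, made up most of it, with means of 521, 262, 206 and 46.8 CPM, followed by the MHC class II genes Cd74, H2-Aa and H2-Eb1, with means of 55.2, 49.98 and 26.6 CPM in KO day 5, 14.7, 22.3 and 10.9 CPM in KO day 3, and under 1 CPM in both WT groups. Itgam had a mean of 6.97 CPM in KO day 5 against 0.383 CPM in WT day 5, Cd68 12.2 against 3.78 CPM and Itgax 1.68 against 0.195 CPM. S100a9 was at 0 in all 4 groups and Lyz2 in the first 3. Of the 8 myeloid and dendritic cell markers tested, 7 were higher in KO at day 5 and 4 at day 3, and 0 were lower (limma adjusted p under 0.05). Of all tested genes, 16.5% and 11.2% were higher in KO at those days. Of 9 NK cell and innate lymphoid markers, 7, 6, 7 and 5 had reads, with sums of 484 to 514, 360 to 404, 231 to 252 and 165 to 193 CPM, and Ncr1 and Klra8 were at 0 in all groups. The B cell genes Ms4a1 and Cd22 were at 0 in all groups. Single CD8 T cell markers also differed by genotype. At day 5, 6 of the 9 were higher in KO and 0 lower, where 39.4% of all tested genes passed. At day 3, 1 was higher and 3 lower, where 18.4% passed. Cd8a was lower in KO at day 3 (−0.41, limma adjusted p = 0.00419) and higher at day 5 (0.42, limma adjusted p = 0.00136). Its difference between KO and WT changed by 0.83 between days (limma adjusted p = 2.55e-04). That test passed for 6 of the 9 markers and 12.9% of all tested genes. Of 6 CD4 and regulatory T cell markers, 5, 6, 5 and 6 had reads in KO day 5, WT day 5, KO day 3 and WT day 3. Their sums were 94.1 to 135, 76.8 to 88.8, 83.5 to 92.5 and 92.0 to 113 CPM. Of the 5 tested, Ikzf2 was higher and Cd40lg lower in KO at day 5, where 39.4% of all tested genes passed. At day 3 Foxp3 was lower in KO, where 18.4% passed. The part of these marker levels in the receptor results was not tested. In such bulk libraries fewer cells of a type and less RNA per cell cannot be told apart.

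RefSeq promoter windows on GRCm38.p6, from 250 bases before to 50 bases after the annotated start, matched 9 of the 10 genes in 11 windows. They were searched on both strands for the STAT palindrome TTCNNNGAA, the FOXO motif GTAAACA and the RUNX motif TGTGGT. The 4 windows below are shown because they belong to the genes whose difference between KO and WT changed from day to day, and capitals mark motif matches. They lie on GRCm38.p6 at chr15:9529827-9530126 (Il7r, minus strand), chr6:67376139-67376438 (Il12rb2, minus strand), chr1:40465756-40466055 (Il18r1, plus strand, the third of its 3 windows, shown because it holds matches) and chrX:101268206-101268505 (Il2rg, minus strand).
Il7r: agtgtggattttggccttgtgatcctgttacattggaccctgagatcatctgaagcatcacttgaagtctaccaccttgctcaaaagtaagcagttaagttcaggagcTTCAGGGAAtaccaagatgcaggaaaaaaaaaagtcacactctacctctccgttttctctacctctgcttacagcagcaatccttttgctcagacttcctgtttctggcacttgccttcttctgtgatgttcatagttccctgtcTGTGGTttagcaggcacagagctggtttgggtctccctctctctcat
Il12rb2: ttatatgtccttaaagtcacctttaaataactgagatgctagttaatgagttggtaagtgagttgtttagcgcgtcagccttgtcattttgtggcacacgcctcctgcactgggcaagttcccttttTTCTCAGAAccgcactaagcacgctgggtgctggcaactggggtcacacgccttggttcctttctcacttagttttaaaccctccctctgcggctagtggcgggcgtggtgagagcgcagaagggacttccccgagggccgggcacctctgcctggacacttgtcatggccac
Il18r1: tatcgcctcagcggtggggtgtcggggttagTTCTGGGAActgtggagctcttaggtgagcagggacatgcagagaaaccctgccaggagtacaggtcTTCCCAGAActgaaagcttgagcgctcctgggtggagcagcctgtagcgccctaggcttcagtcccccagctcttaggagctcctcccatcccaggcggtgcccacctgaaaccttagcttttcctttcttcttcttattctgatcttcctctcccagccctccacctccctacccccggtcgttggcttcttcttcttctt
Il2rg: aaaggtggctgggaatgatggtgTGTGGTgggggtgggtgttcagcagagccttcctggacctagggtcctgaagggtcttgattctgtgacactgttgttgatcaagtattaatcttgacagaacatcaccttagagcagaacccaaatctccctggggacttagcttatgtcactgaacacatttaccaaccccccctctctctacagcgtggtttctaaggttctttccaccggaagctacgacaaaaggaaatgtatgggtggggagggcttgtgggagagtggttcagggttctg
Counted from +1 at the start, the STAT palindrome began at −142 in Il7r, at −123 in Il12rb2 and at −219 and −152 in the third Il18r1 window, while the first and second held no STAT match and the second held a RUNX match at +22. It was in 3 of the 11 windows, where 8.30% of all 32851 windows held it. The RUNX motif began at +4 in Il7r and at −227 in Il2rg and was in 5 of the 11 windows, against 16.8% of all windows. The FOXO motif was in 1 window, that of Il21r at −38, where it overlapped a RUNX match at −33, against 3.65% of all windows. Numbers of CpG dinucleotides ranged from 1 in the Il7r window to 33 in the Il6st window, with 12 in Il12rb2, 25 in Il4ra and a median of 7 over all windows. A match is a run of letters and does not show that a factor bound there.

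The 10 genes covered a wide range of levels. Tags of a 3′ library do not scale with transcript length, so levels of different genes are set side by side here as reads per transcript end. Il2ra and Il2rb had the most reads in every group and exceeded 98.0% to 99.1% of the 11417 genes tested. Il6st had the fewest, above 30.5% to 40.3% of tested genes. Summed over the 10 genes, receptor reads were 3149.5 ± 110.2 CPM in KO day 5 against 2551 ± 81.2 CPM in WT day 5, and 3388 ± 123 CPM in KO day 3 against 2909 ± 46.8 CPM in WT day 3 (SD, n = 3 each). Among the 4 groups, mean log2 values spanned 2.17 for Il18rap, 1.96 for Il18r1 and 1.73 for Il12rb2, which was wider than in 96.0%, 94.3% and 91.7% of tested genes. Il21r spanned 0.24, wider than in 5.90% of tested genes.

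**Figure D1:**
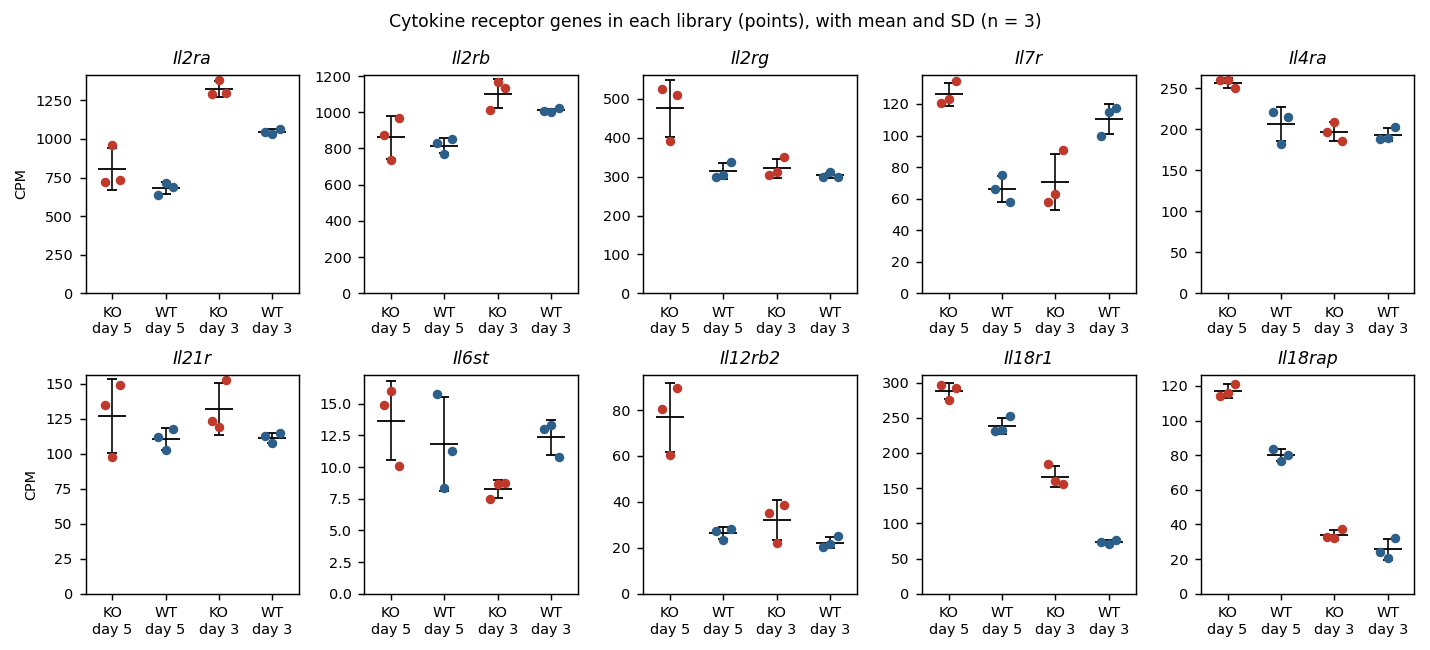
Level of each of the 10 receptor genes in CPM (linear axis from 0) in every library, with points for libraries and bars for the mean and SD of 3 libraries, in the order KO day 5, WT day 5, KO day 3, WT day 3. Il7r was at 120.4 to 135 CPM in KO day 5 and 57.6 to 74.7 CPM in WT day 5, but at 58.2 to 90.8 CPM in KO day 3 and 99.5 to 117 CPM in WT day 3.

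Il2ra (ENSMUSG00000026770, chromosome 2, 11642807 to 11693193 on GRCm38, plus strand) encodes the α chain (CD25), which raises the affinity of the receptor for IL-2. It had 723, 963 and 733 CPM in KO day 5 libraries and 639, 713 and 689.9 CPM in WT day 5 libraries. In day 3 libraries it had 1294, 1379.5 and 1294 CPM in KO and 1045, 1029.7 and 1063 CPM in WT. All KO libraries lay above all WT libraries at each day, and all day 3 libraries lay above all day 5 libraries. The gene was 1.18-fold higher in KO at day 5 (log2 difference of 0.23 ± 0.09, SE, limma adjusted p = 0.0409) and 1.26-fold higher in KO at day 3 (0.34 ± 0.09, limma adjusted p = 0.00984). Between days it was 1.64-fold lower at day 5 in KO (−0.73 ± 0.09, limma adjusted p = 1.22e-06) and 1.54-fold lower at day 5 in WT (−0.62 ± 0.09, limma adjusted p = 4.88e-05). The KO effect did not differ detectably between days (day 5 minus day 3, −0.10, 95% interval −0.36 to 0.15, limma adjusted p = 0.659). KO day 5 replicate 2 had the highest Il2ra of its group, and without it the day 5 difference was 0.10 with limma adjusted p = 0.200 and the change of the KO effect was −0.24 with 0.0391. The day 5 call also ended without WT day 5 replicate 1 or 3 (0.160 and 0.0774), without WT day 3 replicate 1, 2 or 3 (0.0540, 0.0527 and 0.0519) or without KO day 3 replicate 2 (0.0510), and the day 3 call ended without the last of these (0.0523).

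Il2rb (ENSMUSG00000068227, chromosome 15, 78479256 to 78495271 on GRCm38, minus strand) encodes the β chain, which carries the signal of IL-2 and of IL-15. It had 877, 737 and 969.7 CPM in KO day 5 libraries and 828.5, 768 and 851 CPM in WT day 5 libraries, and the 2 groups overlapped. The day 3 values were 1010.3, 1167 and 1133 CPM in KO and 1006, 1003 and 1021 CPM in WT, and these groups overlapped as well. No genotype difference passed the test at day 5 (0.07, 95% interval −0.11 to 0.25, limma adjusted p = 0.556) or at day 3 (0.12, −0.05 to 0.30, limma adjusted p = 0.346). Like Il2ra it was lower at day 5 than at day 3, 1.28-fold in KO (−0.36 ± 0.09, limma adjusted p = 0.00211) and 1.24-fold in WT (−0.31 ± 0.09, limma adjusted p = 0.0225). KO day 5 replicate 2 was the lowest of its group, and without it the day 5 genotype difference was 0.18 with limma adjusted p = 0.0328. The WT change between days lost its call without any 1 of WT day 3 replicates 1, 2 and 3 (0.0694, 0.0645 and 0.0731) or WT day 5 replicates 1 and 2 (0.0574 and 0.112).

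Il2rg (ENSMUSG00000031304, chromosome X, 101264378 to 101268255 on GRCm38, minus strand) encodes the γ chain shared by the receptors for IL-2, IL-4, IL-7, IL-9, IL-15 and IL-21. It had 526, 391 and 510.4 CPM in KO day 5 libraries and 299, 304 and 338 CPM in WT day 5 libraries. At day 3 it had 304, 311 and 349 CPM in KO and 299, 311 and 300.0 CPM in WT. The 3 KO day 5 libraries were above all 9 others, which overlapped one another. Il2rg was 1.52-fold higher in KO at day 5 (0.59 ± 0.10, limma adjusted p = 4.96e-05), and at day 3 the difference was 0.08 (95% interval −0.12 to 0.28, limma adjusted p = 0.621). The KO effect differed between days by 0.51 ± 0.14 (limma adjusted p = 0.0169), a call lost without KO day 3 replicate 1 (0.0529). From day 3 to day 5 it was 1.48-fold higher at day 5 in KO (0.55 ± 0.10, limma adjusted p = 1.22e-04) and differed by 0.05 between days in WT (−0.16 to 0.25, limma adjusted p = 0.832). Il2rg lies wholly within a predicted gene on the same strand, Gm20489, which is listed with 0 reads in these libraries.

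**Figure D2:**
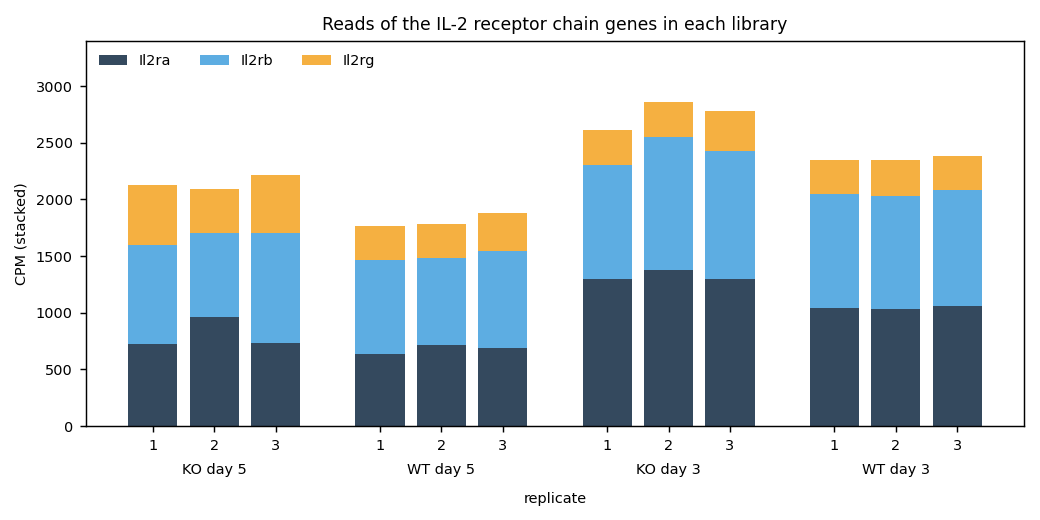
Stacked CPM of Il2ra, Il2rb and Il2rg in each of the 12 libraries, with 3 bars per group in the order KO day 5, WT day 5, KO day 3, WT day 3 (axis from 0). The summed height was 2143 ± 63.2 CPM in KO day 5, 1810.4 ± 60.3 CPM in WT day 5, 2747 ± 127 CPM in KO day 3 and 2359.6 ± 21.1 CPM in WT day 3 (SD, n = 3 each), and the orange Il2rg part is tallest in KO day 5.

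The balance of the 3 chains differed between days. There were 1.76 ± 0.61 Il2ra reads per Il2rg read in KO day 5 libraries and 2.17 ± 0.15 in WT day 5 libraries, against 4.13 ± 0.38 in KO day 3 and 3.45 ± 0.12 in WT day 3 (SD, n = 3 each). In KO day 5 the ratio was 1.37 and 1.44 in replicates 1 and 3 and 2.46 in replicate 2. Il2rb reads per Il2rg read were 1.82 ± 0.13 in KO day 5 and 2.60 ± 0.14 in WT day 5, without overlap, and 3.44 ± 0.28 in KO day 3 and 3.33 ± 0.09 in WT day 3.

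Il7r (ENSMUSG00000003882, chromosome 15, 9505788 to 9530176 on GRCm38, minus strand) encodes the α chain of the IL-7 receptor (CD127), which naive and memory T cells carry at high levels and activated T cells lower. It was the 1 gene of the 10 that passed the test in opposite directions at the 2 days. It had 120.4, 123 and 135 CPM in KO day 5 libraries and 66.0, 74.7 and 57.6 CPM in WT day 5 libraries. In day 3 libraries it had 58.2, 62.7 and 90.8 CPM in KO and 99.5, 115 and 117 CPM in WT. The groups did not overlap at either day, with KO above WT at day 5 and below it at day 3. Il7r was 1.91-fold higher in KO at day 5 (0.93 ± 0.14, limma adjusted p = 1.75e-05) and 1.57-fold lower in KO at day 3 (−0.66 ± 0.14, limma adjusted p = 0.00195). The difference between these effects was 1.59 ± 0.20 (limma adjusted p = 1.30e-05). Between days it was 1.79-fold higher at day 5 in KO (0.85 ± 0.14, limma adjusted p = 5.86e-05) and 1.67-fold lower at day 5 in WT (−0.74 ± 0.14, limma adjusted p = 0.00121). In order of level the groups ran KO day 5, WT day 3, KO day 3, WT day 5, and only the last 2 overlapped. All of these calls held under every alternative tried. Il7, which encodes the ligand, had no read in any library, so its transcript was not detectable at this depth, where 3 reads over a group amount to 0.527 to 0.632 CPM.

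Il4ra (ENSMUSG00000030748, chromosome 7, 125552120 to 125579474 on GRCm38, plus strand) encodes the α chain shared by the IL-4 and IL-13 receptors. It had 260.1, 261 and 250.2 CPM in KO day 5 libraries and 221, 183 and 215 CPM in WT day 5 libraries, and at day 3 it had 197, 209 and 186 CPM in KO and 188, 190.0 and 203 CPM in WT. The KO day 5 libraries were above all others, and the other 3 groups overlapped. Il4ra was 1.24-fold higher in KO at day 5 (0.32 ± 0.09, limma adjusted p = 0.00641, or 0.0584 without WT day 5 replicate 2) and differed by 0.03 at day 3 (95% interval −0.16 to 0.21, limma adjusted p = 0.877). The change of the KO effect between days did not pass (0.29, 0.03 to 0.55, limma adjusted p = 0.136). In KO it was 1.30-fold higher at day 5 than at day 3 (0.38 ± 0.09, limma adjusted p = 0.00176), and in WT the days differed by 0.09 (−0.10 to 0.27, limma adjusted p = 0.612).

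Il21r (ENSMUSG00000030745, chromosome 7, 125603429 to 125633570 on GRCm38, plus strand) encodes the IL-21 receptor chain and starts 23954 bases past the end of Il4ra on the same strand of chromosome 7. It had 135, 97.4 and 149 CPM in KO day 5 libraries and 112, 103 and 118 CPM in WT day 5 libraries, and at day 3 it had 123, 119 and 153 CPM in KO and 113, 107 and 115 CPM in WT. KO and WT overlapped at day 5 and did not at day 3. Neither genotype difference passed the test (0.17 with a 95% interval of −0.10 to 0.45 at day 5, limma adjusted p = 0.314, and 0.23 with −0.04 to 0.50 at day 3, limma adjusted p = 0.242). The value of 97.4 CPM is that of KO day 5 replicate 2, and without it the day 5 difference was 0.35 (limma adjusted p = 0.0114). Days did not differ detectably in KO (−0.07, −0.34 to 0.21, limma adjusted p = 0.739) or in WT (−0.01, −0.28 to 0.26, limma adjusted p = 0.984).

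Il6st (ENSMUSG00000021756, chromosome 13, 112464070 to 112510086 on GRCm38, plus strand), whose product gp130 serves IL-6, IL-11, LIF, oncostatin M and IL-27, was low, with 47 to 65 reads per group over 3 libraries. It had 14.9, 16.03 and 10.1 CPM in KO day 5 libraries and 15.8, 8.36 and 11.3 CPM in WT day 5 libraries, and these overlapped. The day 3 values were 7.46, 8.65 and 8.75 CPM in KO and 13.0, 13.3 and 10.8 CPM in WT, without overlap. Neither genotype difference passed the test, and the intervals were wide at this depth (0.21 with a 95% interval of −0.34 to 0.77 at day 5, limma adjusted p = 0.568, and −0.52 with −1.08 to 0.03 at day 3, limma adjusted p = 0.190). In KO it differed by 0.64 between day 5 and day 3 (0.08 to 1.20, limma adjusted p = 0.0699). That difference between days did pass by edgeR on the recovered reads (0.75, edgeR adjusted p = 0.0449), in limma without a trend in the spread (0.0497) and in limma when KO day 5 replicate 3 was left out (0.83, 0.0334).

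Il12rb2 (ENSMUSG00000018341, chromosome 6, 67291318 to 67376188 on GRCm38, minus strand) encodes the inducible, signal-carrying chain of the IL-12 receptor, which activates STAT4, and had the largest KO difference of the 10 genes at day 5. It had 80.2, 60.4 and 89.7 CPM in KO day 5 libraries and 27.5, 23.4 and 28.3 CPM in WT day 5 libraries. At day 3 it had 35.3, 22.2 and 38.8 CPM in KO and 20.1, 21.6 and 24.95 CPM in WT. The 3 KO day 5 libraries stood above all others, while the other 3 groups overlapped. Il12rb2 was 2.91-fold higher in KO at day 5 (1.49 ± 0.20, limma adjusted p = 2.50e-06), and at day 3 the difference of 0.48 did not pass (95% interval 0.07 to 0.88, limma adjusted p = 0.0953). The KO effect was larger at day 5 by 1.01 ± 0.28 (limma adjusted p = 0.0168). In KO the gene was 2.39-fold higher at day 5 than at day 3 (1.25 ± 0.20, limma adjusted p = 2.95e-05), and in WT the days differed by 0.24 (−0.17 to 0.64, limma adjusted p = 0.521). Without KO day 3 replicate 2, the lowest of its group, the day 3 difference was 0.72 (limma adjusted p = 0.0144) and the difference between days was 0.78 (limma adjusted p = 0.0589).

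The 3′ end of Il12rb2 lies in 6419 bases that it shares with Serbp1 on the opposite strand. Whether reads were counted by strand was not given in the sources used here, so reads of the pair cannot be told apart. Serbp1 ran the other way, with 1980 ± 161 CPM in KO day 5 against 2903 ± 49.1 CPM in WT day 5, and 2881 ± 81.6 CPM in KO day 3 against 3246 ± 54.3 CPM in WT day 3 (SD, n = 3 each). Il12rb1 encodes the partner chain. It had 62.0 ± 6.75 CPM in KO day 5 against 28.1 ± 2.12 CPM in WT day 5 (1.11 ± 0.14, limma adjusted p = 1.16e-06), and 64.9 ± 6.26 CPM in KO day 3 against 34.0 ± 0.473 CPM in WT day 3 (0.91 ± 0.14, limma adjusted p = 6.03e-05). Reads assigned to both IL-12 receptor genes were higher in KO at day 5, those of Il12rb2 under the limit set by its overlap with Serbp1. Stat4 had 50.1 ± 2.80 CPM in KO day 5 and 38.6 ± 11.01 CPM in WT day 5, a difference that did not pass (0.41 ± 0.21, limma adjusted p = 0.132).

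Il18r1 (ENSMUSG00000026070, chromosome 1, 40465552 to 40500854 on GRCm38, plus strand) encodes the ligand-binding chain of the IL-18 receptor and had the largest KO difference of the 10 genes at day 3. It had 297, 276 and 292 CPM in KO day 5 libraries and 232, 232 and 252 CPM in WT day 5 libraries. In day 3 libraries it had 184, 159.5 and 156 CPM in KO and 73.4, 70.9 and 76.6 CPM in WT. The 4 groups did not overlap at all, in the order KO day 5, WT day 5, KO day 3, WT day 3. Il18r1 was 1.21-fold higher in KO at day 5 (0.27 ± 0.09, limma adjusted p = 0.0196) and 2.26-fold higher in KO at day 3 (1.16 ± 0.09, limma adjusted p = 3.58e-09). The KO effect was smaller at day 5, with a day 5 minus day 3 difference of −0.89 ± 0.13 (limma adjusted p = 6.32e-05). Between days the gene was 1.73-fold higher at day 5 in KO (0.79 ± 0.09, limma adjusted p = 4.49e-07) and 3.24-fold higher at day 5 in WT (1.68 ± 0.09, limma adjusted p = 1.65e-11). The day 5 genotype call ended without KO day 5 replicate 1 or 3 (0.0577 and 0.0508) or without WT day 5 replicate 1 or 2 (0.0693 and 0.0673).

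Il18rap (ENSMUSG00000026068, chromosome 1, 40515362 to 40551705 on GRCm38, plus strand) encodes the accessory chain and starts 14507 bases past the end of Il18r1 on the same strand of chromosome 1. It had 114, 116 and 121 CPM in KO day 5 libraries and 83.6, 76.4 and 80.2 CPM in WT day 5 libraries. The day 3 values were 32.8, 31.9 and 37.2 CPM in KO and 24.3, 20.5 and 32.3 CPM in WT. All day 5 libraries were above all day 3 libraries, and KO and WT were apart at day 5 but overlapped at day 3. Il18rap was 1.46-fold higher in KO at day 5 (0.54 ± 0.14, limma adjusted p = 0.00471), and the day 3 difference of 0.41 did not pass (95% interval 0.11 to 0.71, limma adjusted p = 0.0520). Without WT day 3 replicate 3, the highest of its group, that difference was 0.58 (limma adjusted p = 0.00756), and without KO day 5 replicate 2 its limma adjusted p was 0.0354. The KO effect did not differ detectably between days (0.13, −0.29 to 0.56, limma adjusted p = 0.751). From day 3 to day 5 the gene was 3.45-fold higher at day 5 in KO (1.76 ± 0.14, limma adjusted p = 4.92e-09) and 3.11-fold higher at day 5 in WT (1.62 ± 0.14, limma adjusted p = 1.24e-07).

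The summed IL-18 receptor reads were 405 ± 12.1 CPM in KO day 5 and 319 ± 12.1 CPM in WT day 5, and 200.4 ± 14.2 CPM in KO day 3 and 99.3 ± 8.85 CPM in WT day 3 (SD, n = 3 each). There were 2.47 ± 0.12 Il18r1 reads per Il18rap read in KO day 5, 2.99 ± 0.19 in WT day 5, 4.93 ± 0.71 in KO day 3 and 2.95 ± 0.55 in WT day 3, so the ratio was highest in KO day 3 libraries. The summed level of NK cell and innate lymphoid markers, whose cell types also carry this receptor, ran in the same order of groups, as given above. Most of that sum was Eomes, with means of 275 CPM in KO day 5, 246 in WT day 5, 116 in KO day 3 and 89.8 in WT day 3, and Klrd1, with means of 139.8, 74.1, 55.1 and 46.2 CPM in those groups, and effector CD8 T cells express both genes. Gata3 (64.8, 59.1, 63.8 and 40.7 CPM) and Tyrobp (0.848, 0.372, 1.21 and 1.72 CPM) did not follow that order, and Ncr1 and Klra8 were at 0. The part of NK or innate lymphoid cells in the receptor reads was not tested. Il18bp, the secreted decoy for IL-18, had 26.0 ± 8.30 CPM in KO day 5 and 15.4 ± 6.98 CPM in WT day 5, and neither genotype difference passed the test.

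Counted over the 10 genes, 7 passed the test between KO and WT at day 5, all of them higher in KO, where 39.4% of the 11417 tested genes passed in either direction and 16.5% were higher. By edgeR on the recovered reads 7 were higher, where 38.1% of tested genes passed in either direction. Leaving out each of the 12 libraries in turn, 5 to 8 of the 10 passed at day 5, where 3879 to 4484 genes did. At day 3 the same runs gave 3 to 4 of the 10, where 1493 to 2705 genes passed. None of the 10 was lower by either tool or at an unadjusted p under 0.05. At day 3, 3 of 10 passed, with Il18r1 and Il2ra higher and Il7r lower in KO, where 18.4% of tested genes passed, 11.2% higher and 7.23% lower. The median log2 fold change of the 10 genes was 0.30 at day 5 and 0.18 at day 3, beside −0.08 and −0.01 over all tested genes. Libraries of KO and WT did not overlap for 7 genes at day 5 and 5 at day 3, where 47.7% and 38.1% of tested genes did not overlap. The 10 genes were chosen with earlier results of these data known, so the shares of all tested genes are set beside them as description only.

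**Figure D3:**
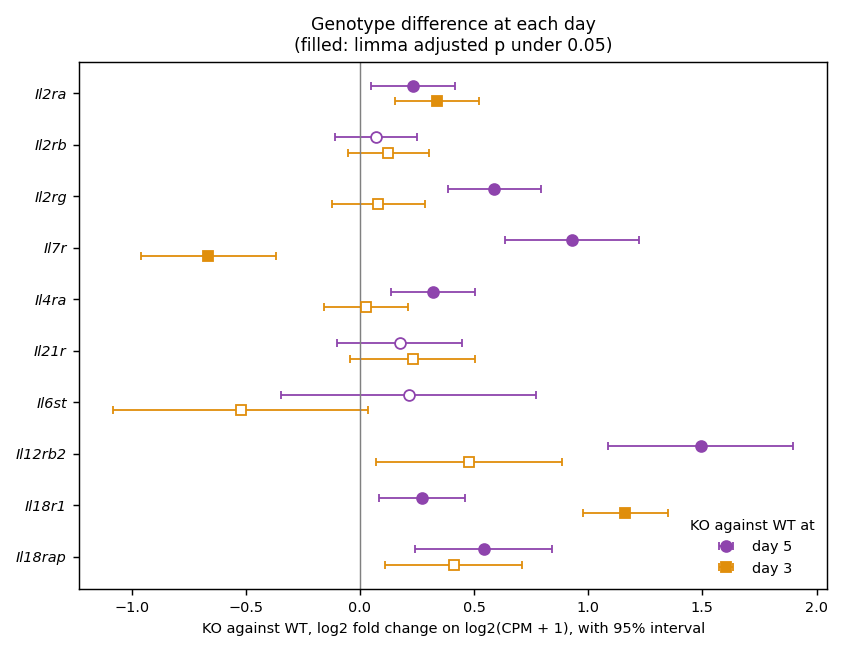
Log2 fold change of KO against WT on the log2(CPM + 1) scale for each receptor gene, with 95% intervals from limma, at day 5 (circles) and day 3 (squares). Filled marks passed limma adjusted p under 0.05, and the vertical line is no difference. Il7r lies right of the line at day 5 (0.93) and left of it at day 3 (−0.66), Il12rb2 is farthest right at day 5 (1.49) and Il18r1 at day 3 (1.16).

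Between days, 8 of 10 passed in KO cells, 6 higher and 2 lower at day 5, where 35.1% of tested genes passed, 15.4% higher and 19.7% lower. By edgeR 7 were higher and 2 lower in KO, Il6st being added, where 34.8% of tested genes passed. In WT cells 5 of 10 passed, 2 higher and 3 lower at day 5, where 10.9% passed, 7.17% higher and 3.77% lower. The IL-18 receptor genes were higher and Il2ra and Il2rb lower at day 5 in both genotypes, and Il7r was higher at day 5 in KO and lower at day 5 in WT. Median log2 fold changes between days were 0.60 in KO and 0.02 in WT, beside −0.04 and 0.05 over all tested genes. The groups did not overlap between days for 9 genes in KO and 5 in WT, where 43.4% and 31.4% of tested genes did not overlap. The KO effect itself changed between days for 4 of 10 genes, larger on the log2 scale at day 5 for Il7r, Il12rb2 and Il2rg and smaller for Il18r1, where 12.9% of tested genes passed, 4.01% higher and 8.85% lower. Leaving out each of the 12 libraries in turn, 3 to 5 of the 10 passed that test, where 1112 to 1761 genes did. Between days, 8 to 9 passed in KO and 4 to 5 in WT, where 3332 to 3950 and 818 to 1775 genes did. These comparisons share libraries, so their counts do not stand independently of one another.

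Among 41 other cytokine receptor genes, 20 were tested and 8 had no read in any library. At day 5, 4 were higher in KO (Il12rb1, Ifngr1, Il1r2 and Il17ra) and 2 were lower (Il3ra and Ifngr2). That is 6 of 20, where 39.4% of all tested genes passed. At day 3, 4 were higher (Il12rb1, Ifngr1, Il1r2 and Il1rl1) and 1, Ifnar2, was lower. That is 5 of 20, where 18.4% of all tested genes passed. The median log2 fold change was 0.26 at day 5 and 0.06 at day 3. Ifngr1, the ligand-binding chain for interferon-γ, had 362 ± 51.1 CPM in KO day 5 against 198 ± 21.1 CPM in WT day 5 (0.86 ± 0.13, limma adjusted p = 1.11e-05). At day 3 it had 142 ± 31.0 CPM in KO against 102 ± 4.73 CPM in WT (0.46 ± 0.13, limma adjusted p = 0.0131, or 0.112 without KO day 3 replicate 3). Il1r2, a decoy receptor for IL-1, was low, with 3.24, 3.70 and 5.05 CPM in KO day 5 against 0.584, 0 and 1.13 CPM in WT day 5. In day 3 libraries it had 19 reads in KO and 0 in WT, at least 5.79-fold higher when 3 reads over the WT group are taken as the floor (limma adjusted p = 7.55e-04). Il1rl1, the IL-33 receptor chain, had 6.29 ± 1.05 CPM in KO day 3 against 2.10 ± 1.73 CPM in WT day 3 (1.38 ± 0.40, limma adjusted p = 0.0186, and 0.69 with a pseudocount of 5), a call lost when KO day 3 replicate 1 (0.0712) or WT day 3 replicate 2 (0.118) was left out. Ifnar2, a chain of the type I interferon receptor, had 56.3 ± 3.60 CPM in KO day 3 against 76.1 ± 3.22 CPM in WT day 3 (−0.43 ± 0.12, limma adjusted p = 0.0147), a call lost when KO day 3 replicate 2 (0.0663) or WT day 3 replicate 3 (0.0549) was left out.

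Of 17 genes for ligands of these receptors, 6 were tested and 7 had no read, among them Il7, Il15 and Il21. At day 5 Il13 and Il27 were higher in KO, 2 of the 6 tested, where 39.4% of all tested genes passed. At day 3, 1 of the 6 passed, where 18.4% of all tested genes did. Il13 had 3.88, 1.85 and 2.53 CPM in KO day 5 and 0 reads in WT day 5, at least 4.84-fold higher with the same floor (limma adjusted p = 9.62e-04). Il27, a subunit of the gp130 ligand IL-27, had 9.06, 6.78 and 12.6 CPM in KO day 5 against 0, 0 and 2.83 CPM in WT day 5 (2.71 ± 0.61, limma adjusted p = 0.00122). That log2 fold change was 3.35 when WT day 5 replicate 3, the WT library with reads, was left out. It was 3.31 by edgeR, and 4.91 or 1.30 with a pseudocount of 0.1 or 5. At day 3 Lif, another gp130 ligand, was lower in KO, with 26.4 ± 6.93 CPM against 56.8 ± 10.2 CPM in WT (−1.10 ± 0.28, limma adjusted p = 0.00893), a call lost when KO day 3 replicate 3 (0.0624) or WT day 3 replicate 2 (0.0553) was left out. Il18 had 2.74 ± 0.73 CPM in KO day 5 and 0.958 ± 0.69 CPM in WT day 5 and did not pass.

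Of 19 genes for JAKs, STATs and adaptors that act under these receptors, 18 were tested. At day 5, 8 were higher in KO (Jak1, Jak2, Jak3, Stat3, Myd88, Irak2, Irs2 and Pik3r1) and 3 lower, among them Stat5b and Traf6, and edgeR called 8 higher and 1 lower. Of all tested genes, 39.4% passed with limma and 38.1% with edgeR. At day 3, 5 were higher (Jak1, Jak2, Stat3, Irak2 and Pik3r1) and 3 lower, among them Stat6 and Irak1, and edgeR called 4 and 2. Of all tested genes, 18.4% passed by either tool. Medians were 0.32 and 0.18 on the log2 scale. Jak1, the kinase bound to IL-2Rβ, IL-7Rα, IL-4Rα, IL-21R and gp130, had 964 ± 119 CPM in KO day 5 against 565 ± 21.1 CPM in WT day 5 (0.76 ± 0.09, limma adjusted p = 2.86e-07). The day 3 values were 572 ± 54.6 CPM in KO against 444 ± 5.42 CPM in WT (0.36 ± 0.09, limma adjusted p = 0.00501, or 0.0687 without a trend in the spread). Jak3, the kinase bound to the γ chain, had 35.5 ± 9.65 CPM in KO day 5 against 23.1 ± 2.94 CPM in WT day 5 (0.58 ± 0.21, limma adjusted p = 0.0311). Stat5b, a main STAT of IL-2 and IL-7 signalling, had 28.6 ± 2.95 CPM in KO day 5 against 41.1 ± 6.12 CPM in WT day 5 (−0.50 ± 0.15, limma adjusted p = 0.0115). Pik3r1, a regulatory subunit of phosphoinositide 3-kinase, had 229 ± 10.4 CPM in KO day 5 against 122 ± 13.2 CPM in WT day 5 (0.91 ± 0.11, limma adjusted p = 1.30e-06) and 154 ± 22.9 CPM in KO day 3 against 91.6 ± 7.13 CPM in WT day 3 (0.74 ± 0.11, limma adjusted p = 6.85e-05). Irs2, an adaptor used by IL-4Rα, had 13.9 ± 2.37 CPM in KO day 5 against 2.67 ± 1.35 CPM in WT day 5 (2.09 ± 0.39, limma adjusted p = 1.76e-04, and 1.31 with a pseudocount of 5). Stat6, the STAT of IL-4, had 46.1 ± 5.94 CPM in KO day 3 against 66.6 ± 3.85 CPM in WT day 3 (−0.53 ± 0.14, limma adjusted p = 0.0112), a call lost without KO day 3 replicate 3 (0.0707), and also without WT day 3 replicate 1 (0.0513).

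Of 9 feedback genes, Cish, Socs1 to Socs7 and Il18bp, 2 passed at day 5, where 39.4% of all tested genes did. Socs3, an inhibitor of gp130 and IL-12 receptor signalling, had 73.8, 24.0 and 88.4 CPM in KO day 5 against 15.2, 19.5 and 22.04 CPM in WT day 5 (1.48 ± 0.30, limma adjusted p = 4.59e-04). KO day 5 replicate 2 lay close to the WT values, and without it the difference was 2.05. Socs7 had 58.0 ± 10.8 CPM in KO day 5 against 78.4 ± 4.72 CPM in WT day 5 (−0.44 ± 0.13, limma adjusted p = 0.0116), a call lost when KO day 5 replicate 2 (0.0724) or WT day 5 replicate 2 (0.0508) was left out. At day 3, 0 of 9 passed with limma, 0 with edgeR and 0 at an unadjusted p under 0.05. Of all tested genes, 18.4% passed with limma and 18.4% with edgeR. Socs1, which restrains IL-2 and interferon signalling, had 138 ± 45.1 CPM in KO day 5 and 136 ± 14.04 CPM in WT day 5, and 167 ± 20.3 CPM in KO day 3 and 201 ± 15.3 CPM in WT day 3.

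**Figure D4:**
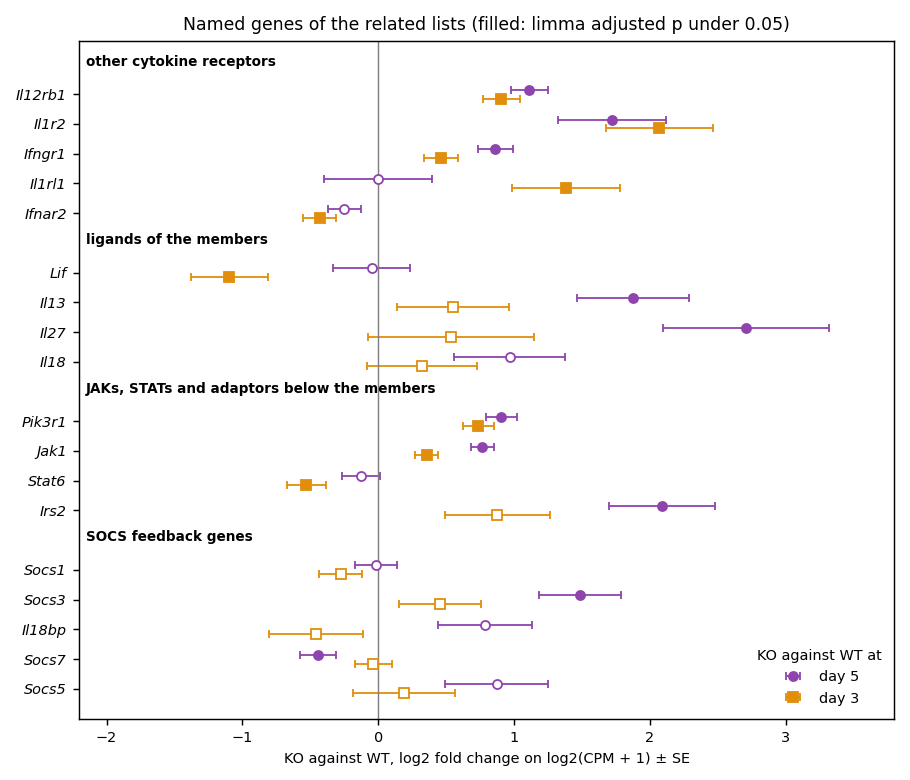
Log2 fold change of KO against WT ± SE on the log2(CPM + 1) scale for genes of the 4 related lists, at day 5 (circles) and day 3 (squares), with filled marks for limma adjusted p under 0.05. Il12rb1, Jak1 and Pik3r1 lie right of 0 at both days, with 1.11, 0.76 and 0.91 at day 5 and 0.91, 0.36 and 0.74 at day 3. Il13 and Il1r2 have WT groups with 0 to 3 reads, so their plotted values depend on the constant of 1 CPM added.

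Genes most like a receptor gene over the 12 libraries were found by the root mean square difference of log2 values, each gene centred on its own mean, among 8883 genes. The Il12rb2 pattern was closest to Serpinb6b (0.15), Laptm5 (0.19) and Sirt2 (0.22). Laptm5 had 1994 ± 169 CPM in KO day 5 against 802 ± 37.9 CPM in WT day 5, and 925 ± 49.98 CPM in KO day 3 against 601 ± 22.9 CPM in WT day 3. Il18r1 was closest to Niban1 (0.23), Lpar6 (0.24) and S1pr4 (0.26), and Il18rap to Sfxn3 (0.24), Grina (0.28) and Dap (0.29). Il2ra was closest to Ksr1 (0.12), Mxi1 (0.13) and Slc35b1 (0.15). Neither IL-18 receptor gene was among the 3 genes closest to the other. Libraries of a group share their depth and handling, so these distances are a description over 12 libraries.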

How the data were processed

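Libraries were made with a QuantSeq 3′ mRNA kit from 500 ng of total RNA, per the labels' protocols, and such tags lie near the 3′ end of polyadenylated transcripts. The values deposited by the authors are named TPM, but each library adds up to 1000000, and within 0.001 read 100% of its values are multiples of 1 read, so they were treated as CPM (whole reads divided by the library total). The design had assumed TPM, and its test was kept. The builds GRCm39 and mm10 are named, without a role, in the submitters' processing notes. The aligner, the counting tool and any use of strand were not given in the sources used here. Coordinates come from GENCODE M21 on GRCm38, where 25600 of 25655 gene identifiers were found, and promoter sequences from RefSeq.

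Genes at 1 CPM or more in at least 3 libraries were tested (11417, with 14238 not tested). The deposited CPM were put on the log2(CPM + 1) scale, and limma 3.58.1 (R 4.3.3) fitted 4 group means with trended moderation. The tests are two-sided, adjusted by Benjamini-Hochberg over all tested genes, with a threshold of 0.05. Fold changes are ratios of mean CPM, and log2 fold changes on this scale understate the change of low genes. Each comparison pools the spread of all 12 libraries. The fit was also run on simulated counts with the same spread for every gene and library. That run does not cover a library that stands apart, as KO day 5 replicate 2 did. Alternatives were edgeR 4.0.16 on the recovered reads, pseudocounts of 0.1 and 5, no filter or 5 CPM, other scalings, a replicate block, no trend, a robust prior, only the libraries compared, and leaving out each of the 12 libraries. Floors cover counting error only.

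The 10 genes, the related lists, the motifs and the tests were chosen with earlier results of these data known. The rule for named genes takes the 10 genes, Ezh2, the 3 smallest adjusted p of each related list at each day and any gene in a count of 5 or fewer. Jak3, Stat4 and Serbp1 are outside it and were chosen after their values were seen. Some genes of the related and marker lists are not reported here.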

Additional observations from a re-analysis of the deposited data

Results flagged for a closer look

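For 5 genes the test of the difference itself found that the KO effect (log2 fold change of KO against WT) was not the same at day 5 and day 3. They were 4 of the 10 receptor genes and Jak1, where 12.9% of the 11417 tested genes passed. Jak1 was 1 of 18 tested genes for JAKs, STATs and adaptors. Of the other related lists, 0 of 20 receptors, 0 of 6 ligands and 0 of 9 feedback genes passed. For Il7r the day 5 effect exceeded the day 3 effect by 1.59 ± 0.20 (SE, limma adjusted p = 1.30e-05), with the 3 KO libraries above the 3 WT libraries at day 5 and below them at day 3. For Il12rb2 the difference was 1.01 ± 0.28 (limma adjusted p = 0.0168) and for Il2rg 0.51 ± 0.14 (limma adjusted p = 0.0169), with KO above WT in 3 of 3 libraries at day 5 for both genes. For Il18r1 it was −0.89 ± 0.13 (limma adjusted p = 6.32e-05), with KO above WT in 3 of 3 libraries at each day. For Jak1 it was 0.41 ± 0.12 (limma adjusted p = 0.0278), again with KO above WT in 3 of 3 libraries at each day.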

How the results depend on the processing

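Each gene's fold changes were recomputed under 23 alternatives, or 22 for the change of the KO effect between days. Over the 10 receptor genes, 1082 values kept their direction and their side of the threshold, 28 lost and 13 gained a call, and 17 changed sign, none of them past the threshold. Every call of Il7r held, as did those of Il12rb2 and Il2rg at day 5, of Il18r1 at day 3, between days and for the change of the KO effect, and of Il18rap at day 5 and between days. Without a trend in the spread, 773 genes passed between days in WT, 884 genes and 2 of the 10 receptor genes passed for the change of the KO effect (Il12rb2 at 0.0695 and Il2rg at 0.124 did not), and the calls of Il2ra at both days, Il18r1 at day 5 and Il2rb between days in WT ended (limma adjusted p of 0.171 at day 5 and 0.0990 at day 3 for Il2ra, then 0.0620 and 0.165). Il2ra at day 5 also lost its call with no filter (0.0682) and with only the libraries compared (0.138). In the related lists, dropping the trend ended the day 3 calls of Jak1, Ifngr1 and Ifnar2 (limma adjusted p of 0.0687, 0.0906 and 0.0517). Il18 at day 5 gained a call without the trend (0.0192), and Il1rl1 at day 3 lost its call with quantile normalization (0.0535). Il18rap at day 3 gained one with the 5 CPM filter (0.0481) and median-of-ratios scaling (0.0485), and Il4ra gained one for the change of the KO effect under that scaling (0.39, limma adjusted p = 0.0429). No scaling moved the median of all genes by over 0.1 on the log2 scale. The change of the KO effect turned to 0.00364 for Il2rb and 0.00578 for Il21r with edgeR, to 0.0446 and 0.0414 with median-of-ratios scaling, and to 0.0534 for Il21r with quantile normalization. Leaving out each library in turn, the genes that passed between days in WT numbered 818 to 1775. Signs changed over ranges of −0.0200 to 0.178 for Il2rb at day 5 and, for the same gene's change of the KO effect, −0.145 to 0.0533. The day 5 against day 3 differences ranged from −0.192 to 0.112 for Il21r in KO, −0.0551 to 0.0457 for Il21r in WT, −0.312 to 0.109 for Il6st in WT and −0.00808 to 0.0795 for Il2rg in WT. The change of the KO effect ranged from −0.18 to 0.12 for Il21r and −0.0391 to 0.277 for Il18rap, and the day 3 difference from −0.0159 to 0.0670 for Il4ra and −0.21 to 1.15 for Il27. The cause of these changes was not tested.

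Samples with the same replicate number had deviations that correlated at −0.10 to 0.18 across genes, so the numbers were not taken as pairs. With a replicate block 4 of the 10 genes passed at day 3, where 18.1% of tested genes did, Il18rap being added (0.0423). The other counts over them stayed at 7 at day 5, 8 between days in KO, 5 between days in WT and 4 for the change of the KO effect, where 39.3%, 35.0%, 10.8% and 12.9% of tested genes passed. Il6st had 15 to 27 reads in a library, so depth limits what could be detected for it.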
